A study of Mus musculus with 6 samples.

Results

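The chemokine ligands are small secreted proteins that attract leukocytes. A list of 34 genes of the family was taken by symbol, and all 34 were among the 18193 genes measured by a probe set (a group of short probes for 1 transcript) that carries a single gene symbol. Each ligand binds one or a few G protein-coupled receptors on the surface of its target cells, and cells move up its gradient. Homeostatic ligands such as Cxcl12 and Cxcl13 position cells in resting tissue, and inflammatory ligands such as Ccl2 and Cxcl1 are induced by cytokines and microbial products. In the lung, epithelial cells, fibroblasts, macrophages and lymphocytes all make some of them.

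The samples were lung cells of female mice aged 4 months on a mixed Bl6/129 background, with 3 arrays from Bmi1 wild-type mice and 3 from mice whose genotype is given as Bmi1 null and which the titles call Bmi1 mutant. Bmi1 encodes a Polycomb protein that keeps genes silent through histone modification. Cells were dissociated with enzymes and sorted as negative for CD31, CD45 and a dye of dead cells, so endothelial and blood cells were meant to be left out, and their RNA was amplified and hybridised to Affymetrix Mouse Genome 430 2.0 arrays. The labels do not say which part of Bmi1 is missing or whether an array holds 1 mouse or a pool, so the p-values cover only the spread among these arrays. No other treatment is named for either group, and cells were not cultured.

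Some facts of the arrays touch every value given here. Bmi1 signal was not lower in the mutant arrays, at 1446 ± 151 (SD, n = 3) against 1047 ± 102 (SD, n = 3) in wild type, so "mutant" below stands for the label. Transcripts of blood cells were present in spite of the gate. Ptprc, which encodes CD45, averaged 7716 ± 966 (SD, n = 3) on the wild-type arrays against 5767 ± 852 (SD, n = 3) on the mutant arrays, and Pecam1, which encodes CD31, read 2247 ± 506 and 2939 ± 247 (SD, n = 3 each). The groups overlapped for both genes. In such bulk samples, fewer cells of a type and less RNA per cell cannot be told apart. Signals are the deposited linear intensities, scaled to a common mean on every array, so a level can be compared between arrays but not between genes. Differences are mutant minus wild type on the log2(signal + 16) scale, which understates the change of dim genes, and each has its standard error (SE) from limma. A gene was called where its limma p, adjusted by Benjamini and Hochberg over all 18193 genes, was under 0.05, and only called genes are said to have risen or fallen.

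Of the 34 ligands, 4 rose and 1 fell. The 4 were Ccl7 and Ccl12, which attract monocytes, Cxcl17, a mucosal chemokine, and Pf4, a heparin-binding chemokine of platelets and some macrophages. The ligand that fell was Ccl5, an attractant of T cells, monocytes and NK cells. With an offset of 1 in place of 16, none of the 5 was called (limma adjusted p of 0.0603 to 0.0925). Among all genes, 0.412% were called higher and 0.511% lower in mutant arrays. At an unadjusted limma p under 0.05, 9 ligands were higher and 6 lower, against 1366 and 1281 of all 18193 genes. The 3 mutant values all lay above the 3 wild-type values for 10 ligands and all below for 6, where 10.4% of all genes were apart upward and 10.0% downward. The remaining 18 ligands overlapped between the groups. Log2 differences ran from -2.39 for Xcl1 to 2.37 for Ccl8, with 23 above 0 and 11 below, and their median was 0.17 against 0.006 over all genes. Some ligands with larger differences than the called ones had larger standard errors and were not called. The plot of signals by array shows all members by target leukocyte.

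**Figure D1:**
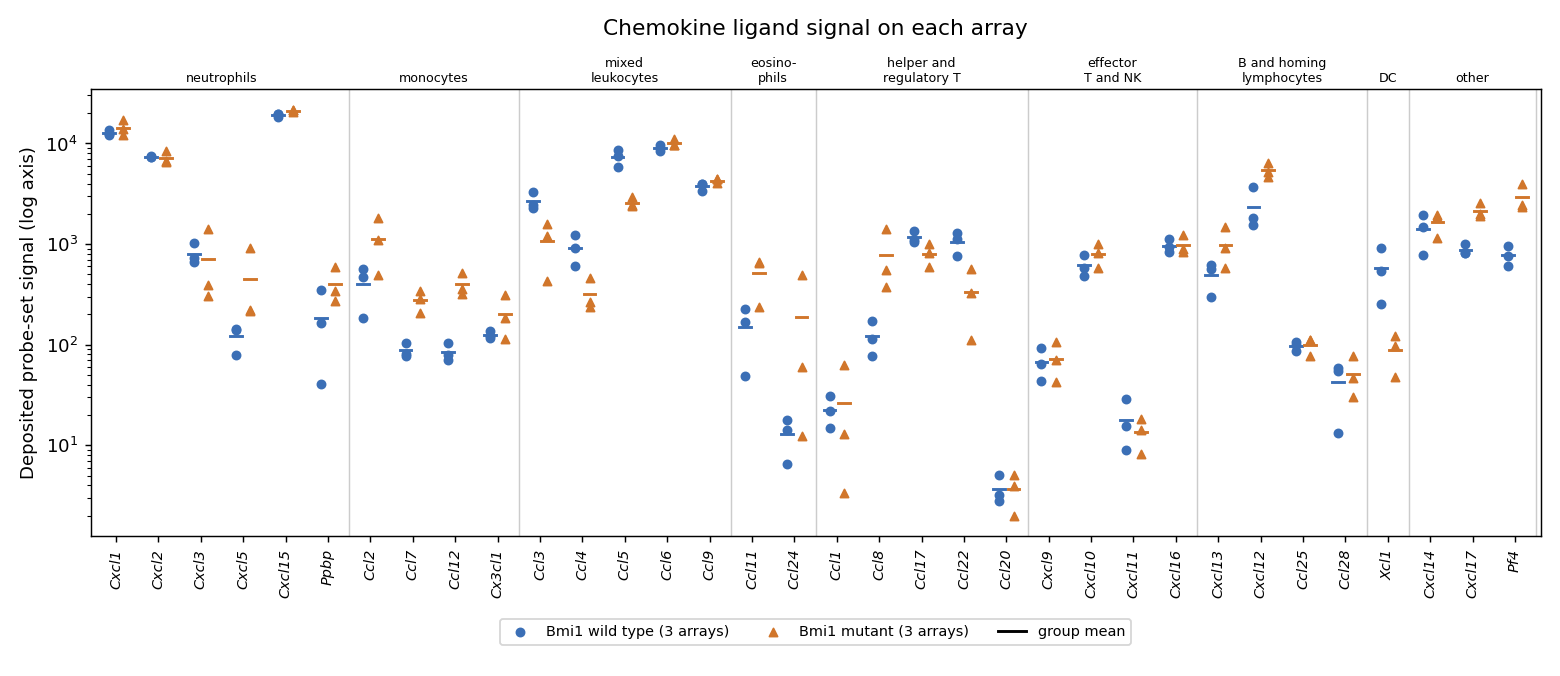
Deposited probe-set signal (log axis) of the 34 chemokine ligands on each array, in blocks by main target leukocyte. Blue circles are the 3 wild-type arrays, orange triangles the 3 Bmi1 mutant arrays and short lines the group means. Ccl7, Ccl12, Cxcl17 and Pf4 lie higher in all 3 mutant arrays and Ccl5 lower.

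Of the 4 monocyte attractants, Ccl7 and Ccl12 rose and Ccl2 and Cx3cl1 overlapped between the groups. Ccl2, Ccl7 and Ccl12, also called monocyte chemoattractant proteins, bind CCR2 on inflammatory monocytes. Ccl12 signal was 70.7, 79.6 and 104 on the wild-type arrays, in the order of their replicate numbers, and 521, 359 and 320 on the mutant arrays. The lowest mutant array was well above the highest wild-type array. Ccl12 averaged 84.6 ± 17.1 (SD, n = 3) on the wild-type arrays and 399.7 ± 107 (SD, n = 3) on the mutant arrays, a log2 difference of 2.03 (SE 0.24, limma adjusted p = 0.0225). Ccl7 read 103, 81.4 and 77.9 in wild type and 340, 285 and 206 in mutant arrays. These groups were also apart, and the mutant values were more spread than the wild-type values. The Ccl7 means were 87.5 ± 13.7 (SD, n = 3) and 277 ± 67.4 (SD, n = 3), a log2 difference of 1.48 (SE 0.22, limma adjusted p = 0.0407).

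Ccl2, the best known of the CCR2 ligands, had signals of 559, 471 and 183 in wild type and 1093, 1826 and 491 in mutant arrays. Mutant replicate 3 lay between the wild-type arrays, so the groups overlapped, and the difference of 1.40 (SE 0.57, limma adjusted p = 0.325) was not called. Cx3cl1, a membrane-bound ligand of CX3CR1 on patrolling monocytes, ranged from 115 to 137 in wild type and from 113 to 312 in mutant arrays and was not called either (0.54, SE 0.33, limma adjusted p = 0.524). The receptors on monocytes gave smaller differences, 0.27 for Ccr2 and -0.49 for Cx3cr1 (limma adjusted p = 0.721 and 0.656). Markers of monocytes and tissue macrophages were mostly higher but unlike each other in size. Of 11 measured markers, 10 had a positive difference, with a median of 1.11. Arg1 alone was called higher, 6 were higher at an unadjusted p under 0.05, and 5 were apart upward. Apart beside Arg1 were C1qa, C1qb, C1qc and F13a1, at 1.62, 1.29, 1.92 and 1.15 (limma adjusted p = 0.209, 0.0894, 0.0746 and 0.068). Csf1r, Cd14, Fcgr1, Cd68, Adgre1 and Cd163 overlapped between the groups, and of these Cd163 had the largest difference (1.11, limma adjusted p = 0.288). The summed signal of the list was 15090 to 22540 in wild type and 25250 to 36870 in mutant arrays. Such sums, here and below, are set mostly by the brightest members of a list. No value in the table was 0, for these or any other markers. The part of these cells in the monocyte attractants was not tested.

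With 1 array left out, Ccl7 kept a log2 difference of 1.33 to 1.67 with limma adjusted p of 0.0508 to 0.159, so the loss of any single array ended its call. For Ccl12 the difference was 1.83 to 2.17 and the limma adjusted p 0.0428 to 0.106, and only without mutant replicate 3 was it still called.

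The attractants of mixed leukocytes (Ccl3, Ccl4, Ccl5, Ccl6 and Ccl9) divided into a lower set and a set with little difference. Ccl3 and Ccl4 are macrophage inflammatory proteins made by activated macrophages, NK cells and T cells, and Ccl5 is made mainly by T and NK cells. Ccl5 signal was 5823, 8517 and 7591 in wild type and 2422, 2366 and 2970 in mutant arrays. The groups were far apart, and the mutant arrays were close to each other. The means were 7310 ± 1370 (SD, n = 3) and 2586 ± 334 (SD, n = 3), so Ccl5 fell by 1.48 on the log2 scale (SE 0.20, limma adjusted p = 0.0324). Leaving out any 1 of the 6 arrays gave a difference between -1.64 and -1.36 and ended the call, with limma adjusted p of 0.0528 to 0.135.

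Ccl3 had signals of 2444, 3258 and 2289 in wild type and 1595, 1199 and 425 in mutant arrays. Ccl4 had 907, 1240 and 605 in wild type and 463, 234 and 267 in mutant arrays. Both were lower in every mutant array than in any wild-type array, but neither was called. The differences were -1.48 for Ccl3 (SE 0.47, limma adjusted p = 0.223) and -1.47 for Ccl4 (SE 0.34, limma adjusted p = 0.119), close in size to that of Ccl5. Ccl6 and Ccl9, CCR1 ligands of rodents that macrophages and other myeloid cells make constantly, differed by 0.16 and 0.18 (limma adjusted p = 0.716 and 0.68). Ccl9 was nevertheless apart, at 3379 to 3993 in wild type and 4014 to 4418 in mutant arrays. Ccr1, the receptor of Ccl3, Ccl5, Ccl6 and Ccl9, differed by 0.43 (limma adjusted p = 0.66).

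Xcl1 is made by NK cells and CD8 T cells and attracts the cross-presenting dendritic cells that carry XCR1. Its signal was 545, 923 and 254 in wild type and 96.7, 47.6 and 121 in mutant arrays. All mutant arrays lay below all wild-type arrays, and wild-type replicate 3 lay nearest to them. The mean was 574 ± 335 (SD, n = 3) on wild-type arrays and 88.4 ± 37.3 (SD, n = 3) on mutant arrays, the lowest log2 difference of the family at -2.39 (SE 0.49), and it was not called (limma adjusted p = 0.0877). Under another variance prior of limma, which follows the mean signal and is robust to outlying genes, Ccl4 and Xcl1 were called as well (limma adjusted p = 0.0453 and 0.0284), with the same differences. Xcl1 was also called where genes under a mean signal of 100 were left out (limma adjusted p = 0.0494).

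Summed signals of NK cell and T cell markers were lower beside Ccl3, Ccl4, Ccl5 and Xcl1. Of 8 measured NK cell markers, 7 were called lower (Ncr1, Klra7, Klra8, Klre1, Eomes, Gzma and Gzmb) and all 8 were apart downward, with a median log2 difference of -2.98. Their summed signal was 12520 to 18920 in wild type and 2364 to 4222 in mutant arrays. Gzma made 7557 to 11650 and 1227 to 3034 of it. Of 9 T cell markers, Cd8a was called lower and 6 were apart downward, with sums of 7391 to 11810 in wild type and 4071 to 5546 in mutant arrays. Of 9 alveolar macrophage markers, 3 (Siglecf, Krt79 and Fabp1) were called lower and 5 were apart downward, with sums of 51050 to 61550 and 32750 to 44400. Chil3, the brightest marker, overlapped between the groups (-0.01) and made 16130 to 16820 and 14670 to 19140 of them. Car4, Marco and Mrc1 overlapped as well. The part of these cells in the lower ligands was not tested.

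The helper and regulatory T cell attractants lay on both sides of 0 without a call. Ccl17 and Ccl22 bind CCR4 on type 2 helper and regulatory T cells and are made largely by dendritic cells and macrophages. Ccl22 had signals of 1112, 754 and 1278 in wild type and 565, 112 and 330 in mutant arrays, and Ccl17 had 1351, 1059 and 1087 against 999.6, 807 and 587. Both genes were lower in all 3 mutant arrays, by differences of -1.82 for Ccl22 (SE 0.54, limma adjusted p = 0.193) and -0.56 for Ccl17 (SE 0.23, limma adjusted p = 0.34). The summed dendritic cell signal was lower too. Of 9 measured markers, 4 (Xcr1, Ccr7, Cd209a and Siglech) were called lower and 6 were apart downward. The sums were 16360 to 19530 in wild type and 9857 to 12900 in mutant arrays. H2-Aa, which overlapped between the groups, made 9022 to 11780 of the wild-type sums. The part of dendritic cells in these values was not tested. Ccr4 itself differed by 0.03 (limma adjusted p = 0.978).

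Ccl8, which in the mouse binds CCR8, was at the other end of the family. Its signals were 174, 77.2 and 115 in wild type and 558, 1404 and 374 in mutant arrays. The groups were apart, with mutant replicate 2 highest. The means were 122 ± 48.7 (SD, n = 3) and 779 ± 549 (SD, n = 3), the highest log2 difference of the 34 ligands at 2.37 (SE 0.50), and the spread left it uncalled (limma adjusted p = 0.0923). Ccl8 was called under the other variance prior (limma adjusted p = 0.0289) and where only genes above the median gene's mean signal were tested (limma adjusted p = 0.0423). Ccl1, the other CCR8 ligand, was dim in both groups, at 14.8 to 30.9 in wild type and 3.33 to 62.3 in mutant arrays. Ccl20, the ligand of CCR6, did not pass a signal of 5.10 on any array. Of the receptors, Ccr6 was apart downward (-1.04, limma adjusted p = 0.288) and Ccr8 overlapped between the groups (-0.84, limma adjusted p = 0.673).

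Both eotaxins, which bind CCR3 on eosinophils, had higher means in mutant arrays. Ccl11 had signals of 229, 48.5 and 168 in wild type and 652, 671 and 236 in mutant arrays. The groups were just apart, with mutant replicate 3 close to wild-type replicate 1, and the difference was 1.77 (SE 0.59, limma adjusted p = 0.242). Ccl24 had 14.1, 6.52 and 17.9 in wild type and 495, 60.4 and 12.3 in mutant arrays. Mutant replicate 1 alone made most of its mean of 189 ± 266 (SD, n = 3), mutant replicate 3 overlapped with wild type, and the difference of 1.86 had an SE of 0.95 (limma adjusted p = 0.431). Markers of mast cells, basophils and eosinophils had 0 of 9 called by limma, with 1 higher and 2 lower at an unadjusted p under 0.05. Their sums overlapped, at 4445 to 5396 in wild type and 4103 to 5026 in mutant arrays. Hdc made 3766 to 4685 and 3520 to 4333 of them.

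Pf4, or platelet factor 4, is stored in platelet granules and is also transcribed by some macrophages. It rose in mutant arrays, with signals of 959, 765 and 612 in wild type and 2354, 3942 and 2458 in mutant arrays. All mutant arrays lay far above all wild-type arrays. Pf4 averaged 779 ± 174 (SD, n = 3) and 2918 ± 888 (SD, n = 3), a log2 difference of 1.87 (SE 0.27, limma adjusted p = 0.0376). With 1 array left out the difference was 1.63 to 2.03, and its call ended in each of the 6 cases (limma adjusted p of 0.0611 to 0.147). Ppbp, its neighbour in the genome and another platelet granule chemokine, had 352, 164 and 40.2 in wild type and 272, 598 and 343 in mutant arrays. These overlapped, and the difference of 1.36 (SE 0.67, limma adjusted p = 0.412) was not called.

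Platelet and megakaryocyte markers other than Pf4 and Ppbp lay on both sides of 0, with 4 differences above it and 5 below. Of 9 platelet and megakaryocyte markers, 0 were called higher by limma, 0 were higher at an unadjusted p under 0.05, and Clec1b was called lower. Their summed signal was 1511 to 2029 in wild type and 890 to 1398 in mutant arrays. Clec1b alone set these sums apart, and those of the other 8 markers overlapped, at 757 to 1276 and 787 to 1260, a split made after the values were seen. Itgb3 made 598 to 778 and 603 to 749 of the sums without Clec1b. Itga2b, Gp5, Gp6 and Gp9 did not pass a signal of 41.99 on any array. Of the macrophage lists given above, that of monocytes and tissue macrophages was higher in mutant arrays and that of alveolar macrophages lower, and their part in the Pf4 signal was not tested.

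Cxcl17 is a chemokine of mucosal epithelium that attracts myeloid cells, and its receptor is not settled. Its signal was 818, 812 and 992 in wild type and 2561, 1971 and 1897 in mutant arrays. The groups were widely separated, with little spread within wild type. Cxcl17 rose from 874 ± 102 (SD, n = 3) to 2143 ± 364 (SD, n = 3), a log2 difference of 1.27 (SE 0.19, limma adjusted p = 0.0407). It stayed between 1.14 and 1.36 with 1 array left out, and each of these 6 fits lost the call (limma adjusted p of 0.0861 to 0.158). Epithelial marker lists had median log2 differences of -0.14 (club), 0.09 (ciliated), 0.19 (alveolar type 2) and 0.26 (alveolar type 1). None of 6 club cell, 6 ciliated cell, 8 alveolar type 2 and 7 alveolar type 1 cell markers was called. At an unadjusted p under 0.05 the numbers higher were 1, 1, 0 and 2, and 1 club cell marker was lower. In the same order, 3, 6, 8 and 6 differences were above 0, and 1, 2, 4 and 1 markers were apart upward, where 10.4% of all genes were. Of the club cell markers, 3 were apart downward. Club cell sums were 36210 to 44300 in wild type and 41950 to 47010 in mutant arrays, and those of alveolar type 2 cells were 78950 to 90110 and 95450 to 99710. Ciliated cell sums were 6518 to 8701 and 8973 to 9621, and type 1 cell sums were 19350 to 23100 and 24010 to 27870. Their part in the Cxcl17 signal was not tested.

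The plot of differences sets each ligand's error beside its size.

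**Figure D2:**
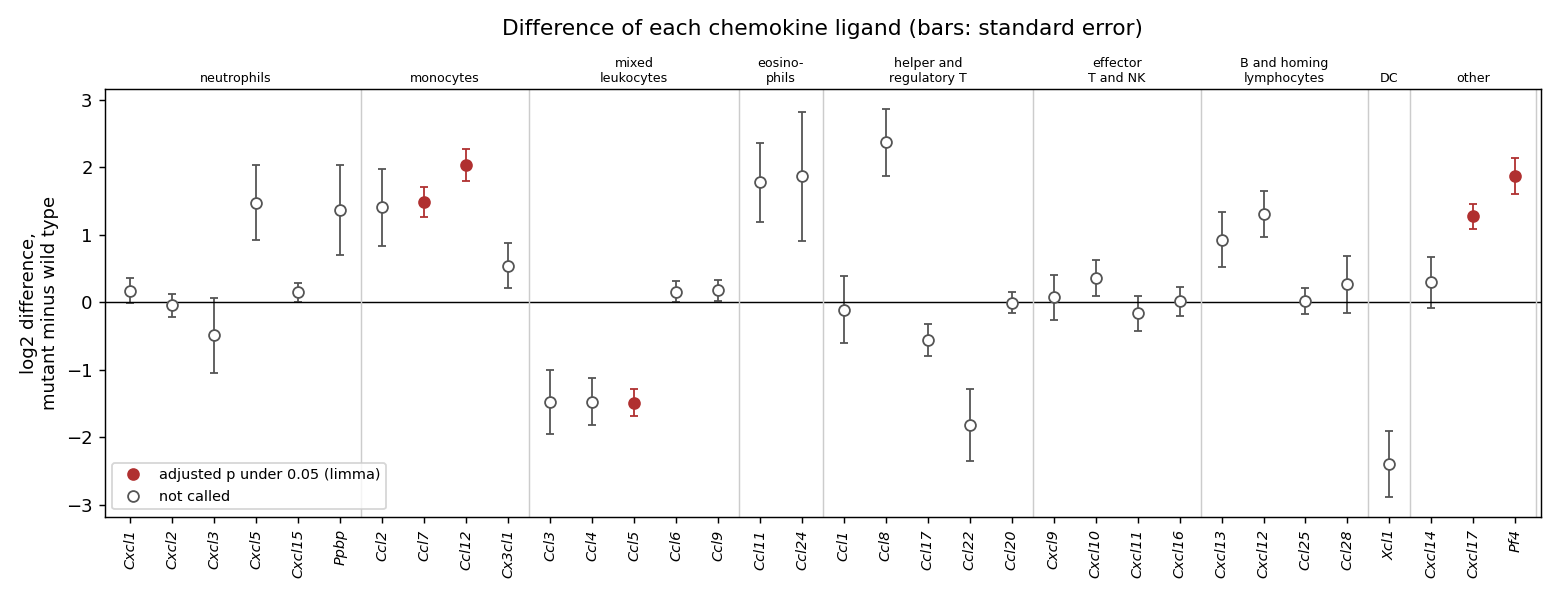
Log2 difference, mutant minus wild type, of the 34 ligands, with bars of 1 SE from limma and the target leukocytes in blocks. Filled points passed an adjusted p of 0.05 over all genes. The called points have short bars, and Ccl8 and Xcl1, at 2.37 and -2.39, lie farther out with longer ones.

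The neutrophil attractants had 0 of 6 called by limma, with 1, Cxcl5, higher at an unadjusted p under 0.05. Cxcl1, Cxcl2, Cxcl3 and Cxcl5 bind CXCR2 and draw neutrophils into the airspace. Cxcl1 had signals of 12020, 13470 and 12470 in wild type and 13840, 17200 and 12130 in mutant arrays. Cxcl2 had 7301, 7589 and 7269 against 6523, 8364 and 6735. Both overlapped, with differences of 0.17 (SE 0.19, limma adjusted p = 0.74) and -0.04 (SE 0.17, limma adjusted p = 0.941). Cxcl3 overlapped as well, at 657 to 1023 in wild type and 302 to 1420 in mutant arrays.

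Cxcl5, a CXCR2 ligand of lung epithelium, had signals of 79.6, 141 and 143 in wild type and 909, 217 and 221 in mutant arrays. The groups were apart, and mutant replicate 1 was the highest by far, and the difference of 1.48 (SE 0.55, limma adjusted p = 0.29) was not called. Without that array it was 0.82. Cxcl15, or lungkine, is made by lung epithelium and helps neutrophils reach the airspace. It was 18440 to 19670 in wild type and 20530 to 21730 in mutant arrays, apart but with a difference of 0.15 (SE 0.15, limma adjusted p = 0.715). Its other probe set gave 0.02.

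The summed neutrophil signal was higher beside these ligands. Of 12 neutrophil markers, Mmp8 and Ltf were called higher and 7 were apart upward. The sums were 12390 to 16610 in wild type and 25960 to 46140 in mutant arrays. S100a9, the brightest marker, made 5997 to 8070 and 10780 to 19190 of them. Cxcr2, the receptor on neutrophils and itself 1 of those markers, had signals of 319, 577 and 348 in wild type and 1187, 2384 and 792 in mutant arrays, apart with a difference of 1.67, and was not called (limma adjusted p = 0.141). The part of neutrophils in the ligand signals was not tested.

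Cxcl9, Cxcl10 and Cxcl11 are induced by interferon gamma and bind CXCR3 on effector T and NK cells. None of them was apart or called by limma, nor had an unadjusted p under 0.05, and neither was Cxcl16, a membrane-bound ligand of CXCR6. Cxcl10 was 482 to 770 in wild type and 584 to 994 in mutant arrays, a difference of 0.36 (SE 0.26, limma adjusted p = 0.599). Cxcl9 differed by 0.07 (SE 0.33, limma adjusted p = 0.951), and Cxcl16 by 0.01 (SE 0.21, limma adjusted p = 0.985). The other Cxcl16 probe set was apart upward, at 538.5 to 637 in wild type and 670 to 735 in mutant arrays. Its difference was 0.25 (limma adjusted p = 0.564 in a fit of all probe sets). Cxcl11 was at or under 29.0 on every array, and RefSeq lists it in GRCm38.p6 as a transcribed pseudogene. The receptor Cxcr3 was apart downward, at 481 to 643 in wild type and 185 to 375 in mutant arrays (-0.93, limma adjusted p = 0.216). Cxcr6 overlapped between the groups (-0.76, limma adjusted p = 0.31). Ifng, which encodes the inducer, fell in mutant arrays. Its signals were 1582, 1767 and 1210 in wild type and 478, 369 and 346 in mutant arrays, a log2 difference of -1.89 (limma adjusted p = 0.0225), and the call ended without any 1 of the 6 arrays (limma adjusted p of 0.0536 to 0.0974). Ifng was the only 1 to be called of 22 measured cytokines and signalling genes from a list on chemokine induction, and the median of that list was 0.03. In that list, Il6 was apart upward (1.22, limma adjusted p = 0.198) and Il4 apart downward (-0.69, limma adjusted p = 0.249).

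Of the 4 homeostatic ligands, 0 were called by limma, 1, Cxcl12, was higher at an unadjusted p under 0.05, and its groups alone were apart. Cxcl12 holds cells that carry CXCR4 in stromal niches and is made by fibroblasts and perivascular cells. Its signals were 3663, 1807 and 1538 in wild type and 6352, 5262 and 4670 in mutant arrays. The groups were apart, with wild-type replicate 1 nearest to the mutant arrays, and the difference was 1.31 (SE 0.34, limma adjusted p = 0.146). Its other probe sets gave 1.48 and 1.55. Cxcl12 was called under the other variance prior (limma adjusted p = 0.0441). Its receptor Cxcr4 overlapped between the groups (-0.05, limma adjusted p = 0.944).

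Cxcl13 attracts B cells through CXCR5. It had signals of 566, 626 and 299.8 in wild type and 920, 1466 and 572 in mutant arrays, which overlapped, with a difference of 0.93 (SE 0.41, limma adjusted p = 0.36). Its other probe set had 320, 264 and 210 against 601, 783 and 453, which were apart, with a difference of 1.15 (limma adjusted p = 0.126 in a fit of all probe sets). Ccl25, the CCR9 ligand known from thymus and gut, differed by 0.02 (SE 0.19), and Ccl28, a mucosal CCR10 ligand, by 0.27 (SE 0.42). Ccr10 itself overlapped between the groups (0.33, limma adjusted p = 0.596). Cxcl14, made by epithelium and stroma, was 774 to 1956 in wild type and 1161 to 1951 in mutant arrays and overlapped (0.30, SE 0.37, limma adjusted p = 0.785).

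Summed stromal signals were higher beside Cxcl12. Of 10 fibroblast markers, Col1a1 was called higher and 4 were apart upward, with sums of 19630 to 35550 in wild type and 43690 to 45320 in mutant arrays. Of 10 smooth muscle and pericyte markers, 0 were called by limma and 9 were higher at an unadjusted p under 0.05, where 1366 of 18193 genes were. Their sums were 4579 to 10840 in wild type and 12730 to 15920 in mutant arrays. Endothelial sums, at 17480 to 29170 and 22620 to 25500, and mesothelial sums, at 2210 to 2755 and 2177 to 3444, overlapped. The part of stromal cells in the Cxcl12 signal was not tested.

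**Figure D3:**
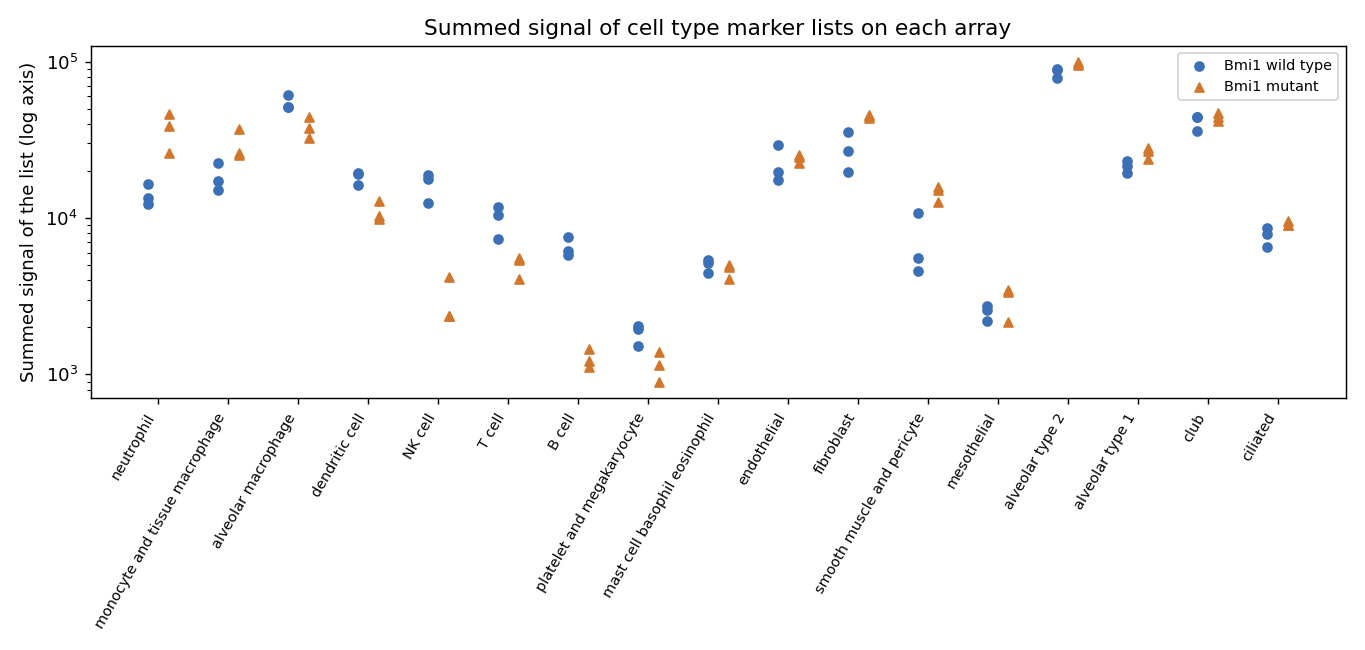
Summed signal of each cell type's marker list on every array (log axis), with blue circles for wild type and orange triangles for Bmi1 mutant. NK cell and B cell sums are lower in all 3 mutant arrays, and neutrophil and monocyte and tissue macrophage sums are higher.

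Chemokine receptors were counted from a list of 22, of which 21 were measured. The list also holds Ackr1, Ackr2, Ackr3, Ackr4 and Ccrl2, which are not tied here to a target leukocyte. Of the 21 measured, 0 were called higher and 4 lower by limma. At an unadjusted p under 0.05 there were 2 higher (Cxcr2 and Ackr1) and 7 lower. Over all 18193 genes the unadjusted numbers were 1366 and 1281. Cxcr5, the CXCL13 receptor of B cells, had signals of 390, 394 and 477 in wild type and 89.3, 48.8 and 25.3 in mutant arrays. It fell by 2.73 on the log2 scale (limma adjusted p = 0.0249), while its ligand Cxcl13 had a positive difference that was not called. Of 7 B cell markers, all 7 were called lower, with sums of 5822 to 7590 and 1114 to 1443, and their part in the Cxcr5 signal was not tested. Xcr1 had 60.3, 44.8 and 89.2 against 2.90, 2.68 and 13.01, a difference of -1.86 (limma adjusted p = 0.0404), in the same direction as its ligand Xcl1.

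Ccr7, which guides dendritic cells and naive lymphocytes to lymph nodes, had signals of 3080, 3632 and 3154 in wild type and 1111, 1407 and 991 in mutant arrays. It fell by 1.49 on the log2 scale (limma adjusted p = 0.0269). Its own ligands are not among the 34. Ccr9 had 146, 206 and 231 against 64.8, 53.2 and 58.8, a difference of -1.47 (limma adjusted p = 0.034), while its ligand Ccl25 differed by 0.02. With 1 array left out, Xcr1 was called in 0 of 6 fits. Ccr7 was called only without mutant replicate 2 (limma adjusted p = 0.044), Ccr9 only without wild-type replicate 1 (0.0487), and Cxcr5 only without mutant replicate 1 or 3. Over the 6 fits the limma adjusted p of Cxcr5 ran from 0.036 to 0.113. Xcr1 and Ccr7 also stand in the dendritic cell list.

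**Figure D4:**
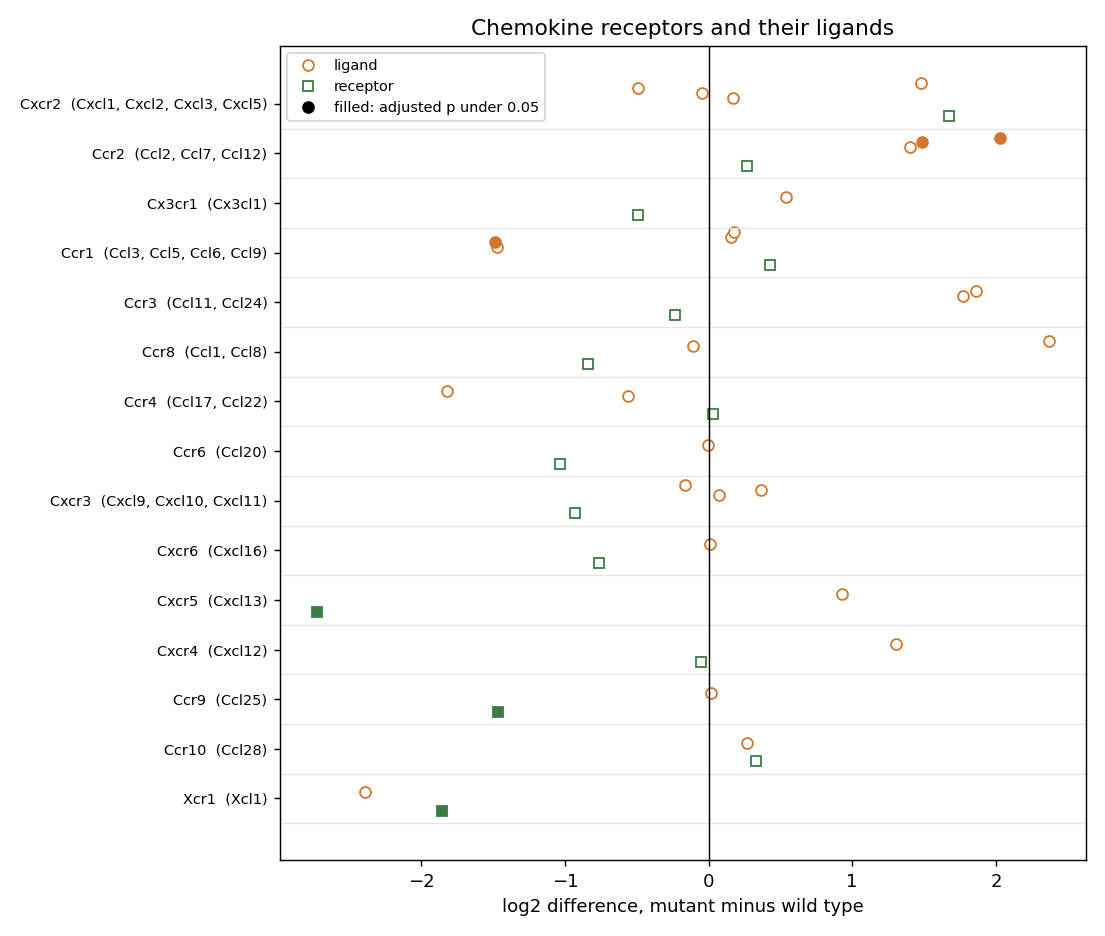
Log2 difference, mutant minus wild type, of chemokine receptors (green squares) and of the ligands that bind each (orange circles, named in brackets), filled where the adjusted p was under 0.05. Cxcr5 lies at -2.73 and its ligand Cxcl13 at 0.93, and Xcr1 and Xcl1 both lie below -1.8.

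Chemokine genes lie in clusters, and 24 of the 34 ligands stood in 5 runs of neighbours, with at most 3 other protein-coding genes between members. Along chromosome 11, Ccl2, Ccl7, Ccl11, Ccl12, Ccl8 and Ccl1 followed each other. In this run 5 of 6 had a positive difference, 4 were apart upward and 2 were called higher, with a median of 1.63. Another run of chromosome 11, with Ccl5, Ccl9, Ccl6, Ccl3 and Ccl4, had a median of -1.47, with 3 of 5 apart downward, 1 apart upward and 1 called lower. Ccl9 and Ccl6, at 0.18 and 0.16, lie between Ccl5 and Ccl3 in that order.

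On chromosome 5, Cxcl5, Ppbp, Pf4, Cxcl3, Cxcl15, Cxcl1 and Cxcl2 formed a run of 7 with a median of 0.17. Here Cxcl5, Ppbp and Pf4, which stand next to each other, differed by 1.48, 1.36 and 1.87. With 1 array left out, Ppbp gave 0.63 (without wild-type replicate 3) to 1.99 and Cxcl5 0.82 (without mutant replicate 1) to 1.81. The 4 that follow lay between -0.49 and 0.17. Cxcl9, Cxcl10 and Cxcl11 formed another run of that chromosome, with a median of 0.07. On chromosome 8, Cx3cl1, at 0.54, lies between Ccl22 and Ccl17, which were both apart downward, at -1.82 and -0.56. Genes of a run are not independent of each other, and no test of the runs was made.

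**Figure D5:**
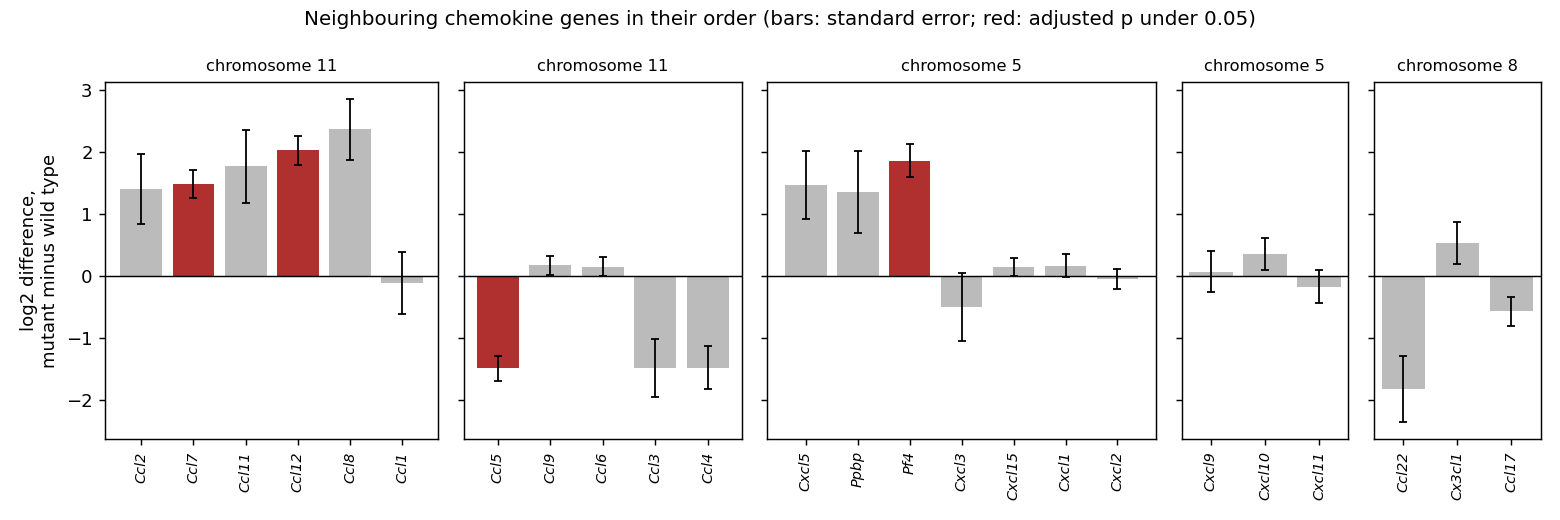
Log2 difference, mutant minus wild type, of the 24 ligands in 5 runs, as bars in genome order within each run, with error bars of 1 SE and red for an adjusted p under 0.05. The run from Ccl2 to Ccl8 lies between 1.40 and 2.37, and in the run of Ccl5, Ccl3 and Ccl4 the values near -1.48 stand at both ends of Ccl9 and Ccl6.

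RefSeq promoters of GRCm38.p6 were matched for 24 of the 34 ligands, and the 250 bases before each start were searched on both strands. The 10 that were not searched are Ccl2, Ccl4, Ccl5, Ccl7, Ccl11, Ccl24, Cxcl5, Cxcl11, Cxcl16 and Cxcl17. The 100 bases before the start are printed for 2 neighbours with high differences, Ccl12 and Ccl8, for the called Pf4, and for the CXCR2 ligands Cxcl1, Cxcl2 and Cxcl3, which overlapped between the groups. All 6 lie on the plus strand. Capitals mark TATAAA in Ccl12, Ccl8 and Cxcl3, the letters of the kappaB consensus in Cxcl1, Cxcl2 and Cxcl3, and in Pf4 the opposite-strand reading of GAGGAAG, the PU.1 motif.
Ccl12, chr11:82101745-82101844: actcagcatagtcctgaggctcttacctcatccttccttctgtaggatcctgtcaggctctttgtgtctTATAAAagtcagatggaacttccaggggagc
Ccl8, chr11:82115085-82115184: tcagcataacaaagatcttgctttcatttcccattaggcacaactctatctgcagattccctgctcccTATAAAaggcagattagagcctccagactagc
Pf4, chr5:90772335-90772434: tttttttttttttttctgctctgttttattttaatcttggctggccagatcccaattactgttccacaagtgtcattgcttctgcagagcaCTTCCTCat
Cxcl1, chr5:90891145-90891244: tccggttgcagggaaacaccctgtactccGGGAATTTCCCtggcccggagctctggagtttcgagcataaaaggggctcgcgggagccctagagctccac
Cxcl2, chr5:90903799-90903898: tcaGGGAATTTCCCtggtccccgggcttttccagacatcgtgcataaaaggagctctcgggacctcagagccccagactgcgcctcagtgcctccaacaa
Cxcl3, chr5:90786001-90786100: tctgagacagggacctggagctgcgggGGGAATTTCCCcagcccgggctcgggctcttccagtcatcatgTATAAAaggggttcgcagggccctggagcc

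The Cxcl1, Cxcl2 and Cxcl3 windows each hold GGGAATTTCCC, and the kappaB consensus, a recognition sequence of NF-kappaB, was found in 6 of 24 ligand promoters (Cxcl1, Cxcl2, Cxcl3, Ccl9, Ccl20 and Cxcl10). It was found in 3.90% of the 32851 promoters of the table. None of these 6 ligands was called, by limma or at an unadjusted p under 0.05, and of the 5 called ligands only Ccl12 and Pf4 were among the 24 searched. TATAAA, the core of the TATA box, was in 10 of 24 ligand promoters and in 12.4% of all promoters. GAGGAAG was in 4 of 24, those of Cx3cl1, Ccl8, Ccl20 and Pf4, and in 10.6% of all promoters.

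GAAANNGAA, an interferon response motif, was in 5 of 24 (Ccl3, Ccl1, Cxcl9, Cxcl10 and Cxcl14) and in 7.13% of all promoters. TGANTCA, bound by AP-1, was in 3 of 24 and in 6.75% of all promoters. TTCNNNGAA, a STAT motif, was in 2 of 24 and in 7.02%. The letters AGATAA, which the zinc-finger family of Gata1 binds, were in 2 of 24 and in 9.99%. A match gives letters in a window and is no measure of binding, and the arrays did not measure it.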

How the data were processed

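RNA of 6 sorted lung cell samples was measured, 1 array each. The deposited values are linear probe-set intensities that came from the authors' run of Expression Console 1.1 by Affymetrix, per the submitters' processing notes. How that run summarized probes, corrected background or called detection is not given in the sources used here. The trimmed mean of the deposited intensities was 500.0023 to 500.0025 and the median 97.4 to 114 on every array, so arrays had been scaled to a common mean, which hides a shift of all genes. The number of arrays limits the precision.

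Of 45101 probe sets, 64 controls were left out, and 34945 had 1 gene symbol in the platform annotation, 932 several and 9160 none. Only the first entered the test. Of the 9010 genes with several probe sets, each was read from the one whose log2 values averaged highest. Of the 34 ligands, 13 had several probe sets, 52 in all, and in 3 these differed in sign. Genotypes were compared on log2(signal + 16) in limma 3.58.1 (lmFit, then eBayes) under R 4.3.3, without covariates (prior of 2.93 degrees of freedom), with Benjamini-Hochberg adjustment over 18193 genes. The test was checked on simulated data. The rule for named genes takes all 34 ligands whatever their values, receptors that were called or bind a described ligand, Bmi1, Ptprc and Pecam1, and of other lists the called members. Outside this rule, some uncalled members of other lists are named as well, and they were picked with their values known. The ligands and lists were chosen with earlier results of these data known.

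The alternatives changed the scaling (quantile normalization or median centring), the offset (1 or 64), the genes kept by signal, the choice or mean of probe sets, the variance prior and the threshold (0.1). Others weighted the arrays, blocked on replicate number or left out each array in turn. Gene order and promoters came from RefSeq tables of GRCm38.p6, in which all 34 symbols were found. Figures were drawn with matplotlib 3.10.9.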

Additional observations from a re-analysis of the deposited data

How the results depend on the processing

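Over 17 alternatives, the 5 called ligands kept their direction in each one that measured them, and 25 of 34 ligands never turned. The counts of calls did change. With an offset of 1 or with a replicate block, limma called 0 ligands higher, 0 lower and 0 receptors lower. At an unadjusted p under 0.05 there were then 8 ligands higher, 5 lower and 6 receptors lower with the offset, and 9, 6 and 6 with the block. With 1 array left out, 0 to 1 ligands were called higher, 0 to 0 lower and 0 to 1 receptors lower. Ligands called higher numbered 6 with the other variance prior, 5 at an adjusted p under 0.1 and 3 among genes above the median gene. Ligands called lower numbered 2 among genes above a signal of 100, 3 with the other prior and 2 at an adjusted p under 0.1. Receptors called lower numbered 3 with an offset of 64, above a signal of 100 or with the mean of all probe sets. They numbered 1 among genes above the median gene. Such filters leave out dim genes, among them Xcr1, with means of 64.75 in wild type and 6.197 in mutant arrays. Over all genes, 75 higher and 93 lower became 12 and 21 (offset 1), 120 and 145 (offset 64), 145 and 163 (signal above 100), 133 and 151 (above the median gene), 213 and 225 (other prior), 229 and 226 (adjusted p under 0.1), 0 and 0 (replicate block), and 1 to 35 and 1 to 41 with 1 array left out. The cause was not tested.

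Differences that turned belong to 9 uncalled ligands. With 1 array left out they ranged from -0.16 to 0.0233 for Cxcl2, -0.69 to 0.32 for Ccl1, -0.0558 to 0.0594 for Ccl20, -0.19 to 0.33 for Cxcl9, -0.36 to 0.0636 for Cxcl11, -0.15 to 0.12 for Cxcl16, -0.0577 to 0.18 for Ccl25, -0.17 to 0.51 for Ccl28 and -0.0761 to 0.58 for Cxcl14. Ccl1 also gave 0.0071 with an offset of 64, Cxcl16 -0.0024 after quantile normalization, and Ccl25 -0.24 as the mean of its probe sets and -0.0051 with array weights. The replicate numbers were not taken as pairs, since the deviations of same-numbered arrays correlated at 0.073, 0.048 and 0.032, although each of 6 arrays correlated best with its own number. The median difference of all genes was 0.006, -0.012 after quantile normalization and -0.005 after median centring. Of the 34 ligands, 6 had a mean signal under 100 in both groups, where the offset limits the size of a difference.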
